A study of Mus musculus with 6 samples.

Results

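The chromobox (Cbx) genes encode small nuclear proteins that read methylated histones, and 7 of them were followed in D10 T cells held in the cold: Cbx1, Cbx3 and Cbx5 of the heterochromatin protein 1 (HP1) type and Cbx2, Cbx6, Cbx7 and Cbx8 of the Polycomb type. They were taken by gene symbol from the 41079 genes of the deposited table. The family was chosen by the log2 fold change of Cbx5 between the temperatures, which stood out among the largest decreases in an earlier look at the same 6 libraries. Its members' changes between the temperatures are therefore given as measured, with no p-value. D10 (D10.G4.1) is labelled as a cloned mouse CD4+ helper T cell line, that is 1 clone, and the labels give lymph node as its tissue. Cold-acclimated T cells were kept for 24 h at 26°C and non-acclimated T cells for 24 h at 37°C, with 3 replicates per condition that the study describes as independently prepared. RNA was extracted in batches that the labels call old and new without assigning libraries to them. A batch therefore cannot be told apart from a replicate or from temperature.

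In the nucleus, HP1 proteins bind histone H3 methylated at lysine 9 (H3K9) through a chromodomain and bind one another and partner proteins through a chromoshadow domain, which compacts heterochromatin around centromeres and over silent repeats. Cbx5 encodes HP1α, Cbx1 HP1β and Cbx3 HP1γ, and HP1γ is also found along transcribed genes. The Polycomb-type proteins share the chromodomain but read histone H3 methylated at lysine 27 (H3K27), a mark laid down by Polycomb repressive complex 2 (PRC2), and are subunits of Polycomb repressive complex 1 (PRC1), which helps to keep developmental genes silent.

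Expression was given as TPM, a measure of transcript abundance in which reads are divided by gene length and each library is scaled to the same total, so levels of different genes can be set side by side while every value is a share of its library. The reads behind the TPM could be recovered and came to between 16899628 and 31290854 per library. Replicate 3 stood apart from the others in both conditions. Cd4, whose product gives the line its CD4+ label, had 1.09 and 0.035 TPM in non-acclimated replicates 1 and 2 and 1.30 and 0.352 TPM in cold-acclimated replicates 1 and 2, but 310 and 328 TPM in non-acclimated and cold-acclimated replicate 3. The Cd4 level in replicates 1 and 2 thus goes against the label. Cd3e, a chain of the T cell receptor complex, was high in every library (476 to 874 TPM), as was the helper T cell factor Gata3 (387 to 751 TPM). Summed over the marker lists, T cell markers came to 3620 to 4997 TPM without and 4489 to 5257 TPM with cold acclimation, B cell markers to 2.10 to 3.62 and 1.02 to 2.06 TPM, macrophage markers to 2.87 to 16.0 and 2.90 to 21.5 TPM, and erythroid markers, mostly Hba-a1, to 94.7 to 491 and 84.4 to 480 TPM. Genes listed at 0 in all 6 libraries included Ms4a1 and Blnk of the B cell list, Cd14 of the macrophage list, and Hbb-bs and Hbb-bt of the erythroid list. Of the 8 genes in each of these lists, 1 B cell, 2 macrophage and 2 erythroid markers reached a mean of 1 TPM. Of 11 tested T cell markers, limma called 0 in either direction, beside 16.0% of all genes downregulated and 2.63% upregulated. At an unadjusted p under 0.05, 1 was higher and 0 lower in the cold, with no share over all genes counted. By voom 0 were called, beside 13.9% of all genes downregulated and 3.34% upregulated. After median of ratios scaling 1 of these markers, Lat, named after its value was seen, was called upregulated, as were 6.87% of all genes.

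The promoters of the HP1-type genes are shown because these genes, alike in their products, had log2 differences between the temperatures from -3.89 (Cbx5) to -0.44 (Cbx3). Each sequence runs 5′ to 3′ on the strand of the gene, from 250 bases before to 50 bases after a RefSeq transcription start. The RefSeq table is built on another release of the mouse genome (GRCm38), and the positions given here come from matching each sequence to GRCm39. Capitals mark matches, on either strand, to the letters of a CCAAT box, a GC box (GGGCGG), an E-box (CACGTG) or an E2F motif (TTTGGCGN). Cbx5 lies at chr15:103148230-103148529 on the minus strand, Cbx1 at chr11:96679711-96680010 on the plus strand and Cbx3 at chr6:51447346-51447645 on the plus strand.
Cbx5: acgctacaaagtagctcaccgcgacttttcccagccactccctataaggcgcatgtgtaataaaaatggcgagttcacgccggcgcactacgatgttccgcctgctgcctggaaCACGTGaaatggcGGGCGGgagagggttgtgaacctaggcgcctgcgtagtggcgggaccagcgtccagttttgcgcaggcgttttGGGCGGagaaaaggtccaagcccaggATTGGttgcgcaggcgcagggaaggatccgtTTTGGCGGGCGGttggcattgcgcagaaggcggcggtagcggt
Cbx1: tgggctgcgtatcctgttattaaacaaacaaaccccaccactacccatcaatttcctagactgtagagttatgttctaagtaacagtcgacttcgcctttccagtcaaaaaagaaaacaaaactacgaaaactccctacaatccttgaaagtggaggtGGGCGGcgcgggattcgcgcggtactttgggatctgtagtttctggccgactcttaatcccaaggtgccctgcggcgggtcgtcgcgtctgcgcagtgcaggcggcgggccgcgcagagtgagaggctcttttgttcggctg
Cbx3: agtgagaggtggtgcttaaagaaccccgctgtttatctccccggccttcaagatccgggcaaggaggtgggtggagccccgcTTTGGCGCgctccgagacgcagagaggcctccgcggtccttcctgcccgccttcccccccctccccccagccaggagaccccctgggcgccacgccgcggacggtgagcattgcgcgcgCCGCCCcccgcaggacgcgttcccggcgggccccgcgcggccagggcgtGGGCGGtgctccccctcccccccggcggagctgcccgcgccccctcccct

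The 3 windows printed were rich in CpG dinucleotides, with 29 in Cbx5, 22 in Cbx1 and 34 in Cbx3 against a median of 7 over the 32851 promoters of the RefSeq table. Counted with the start base as 1 and the base before it as -1, the Cbx5 window held 3 GC boxes (at -123, -50 and 14), an E-box at -136, a CCAAT box on the opposite strand at -24 and an E2F motif at 8 that overlaps the GC box at 14. The Cbx3 window held 2 GC boxes (at -49 and 1) and an E2F motif at -168, and the Cbx1 window a single GC box at -92. Of all promoters in the table, 35.7% held a GC box, 37.4% a CCAAT box, 7.15% an E-box and 1.56% the E2F letters. Neither the TATA letters (TATAAA, in 13.6% of all promoters) nor the ETS letters (CCGGAAG, in 8.86%) were in any of these 3 windows, nor in those of Cbx6, Cbx7 and Cbx8. RefSeq lists a second start for Cbx5, 24558 bases inside the gene, whose window held 8 CpG and 1 GC box and no other motif searched, and a second start for Cbx3, 636 bases inside the gene, whose window held 32 CpG and none of the motifs. A promoter entry was found for 6 of the 7 genes, all but Cbx2. The start used for Cbx5 lies 58 bases and that for Cbx1 455 bases inside the gene as the deposited table draws it, so these windows describe letters near 1 annotated start and no measured start.

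Of the HP1-type genes, Cbx5 was lower in the cold in every replicate, Cbx1 was also lower but by less, and Cbx3 overlapped between the conditions. Cbx5 (chr15:103099973-103148337, minus strand) had 70.6, 70.6 and 143 TPM in non-acclimated replicates 1, 2 and 3 and 2.02, 1.68 and 27.1 TPM in the matching cold-acclimated replicates. Every cold-acclimated library was below every non-acclimated library, and the residual level in replicate 3 was far above that in the other cold-acclimated replicates. Mean TPM was 94.6 ± 41.6 (SD, n = 3) without and 10.3 ± 14.6 with cold acclimation.

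Within replicates, Cbx5 kept 2.86% of its 37°C level in replicate 1, 2.38% in replicate 2 and 19.0% in replicate 3, which are 35.0-fold, 42.0-fold and 5.27-fold lower levels. The reads behind these values numbered 4413, 5288 and 15649 without and 159, 138 and 2519 with cold acclimation, so counting error was small beside the gap between replicates. On the log2(TPM + 1) scale the difference was -3.89 with a standard error (SE) of 0.86, the third lowest of the 12227 genes with a mean of at least 1 TPM. Without both libraries of replicate 3, the difference was -4.65 with an SE of 0.24. In bulk RNA, fewer cells with the transcript and less transcript per cell cannot be told apart, here and for every gene described after it.

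Cbx1 (chr11:96679506-96699808, plus strand) had 90.0, 122 and 108 TPM without and 22.6, 22.0 and 56.0 TPM with cold acclimation. The conditions did not overlap, and cold-acclimated replicate 3 again had the highest level of its condition. Mean TPM was 107 ± 15.9 and 33.5 ± 19.4 (SD, n = 3), and the log2 difference was -1.77 (SE 0.38). Cbx1 was 3.98-fold, 5.54-fold and 1.93-fold lower in replicates 1, 2 and 3.

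Cbx3 (chr6:51447596-51460684, plus strand), the most abundant member in each of the 6 libraries, had 285, 385 and 346 TPM without and 189, 217 and 369 TPM with cold acclimation. The 2 conditions overlapped because cold-acclimated replicate 3 lay among the non-acclimated libraries, and within replicate 3 the level was slightly higher in the cold. Mean TPM was 338 ± 50.5 and 258 ± 96.7 (SD, n = 3), with a log2 difference of -0.44 (SE 0.30). The level of Cbx3 is uncertain where reads are shared with its pseudogenes. Pseudogenes of the other members were not searched for. Of the 2439 windows of 50 bases along an annotated Cbx3 transcript, 18.6% occur unchanged in the 8 processed pseudogenes of Cbx3, and the sources used here do not say how reads shared with them were counted. No such window was shared between any of the 7 members.

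**Figure D1:**
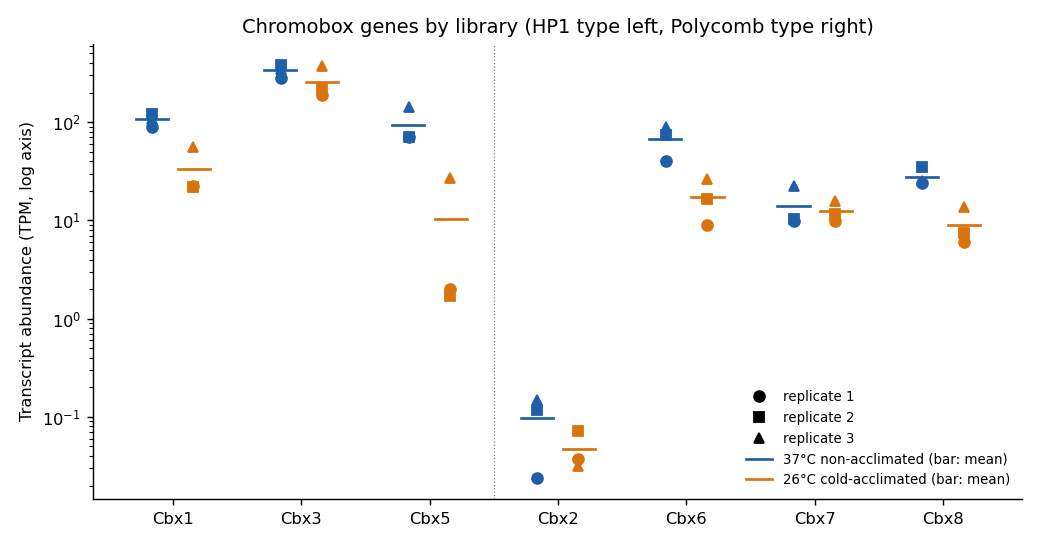
TPM of each chromobox gene in every library, HP1 type on the left and Polycomb type on the right, on a logarithmic axis; symbols stand for replicates, blue for 37°C, orange for 26°C, and short bars for means. Cbx1, Cbx5, Cbx6 and Cbx8 lie lower at 26°C without overlap, Cbx5 down to 2.02, 1.68 and 27.1 TPM, while Cbx3 and Cbx7 overlap and Cbx2 lies under 0.15 TPM.

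The make-up of the HP1-type transcript pool shifted with these values. Cbx3 made up 63.9%, 66.7% and 58.0% of the summed TPM of the 3 genes in non-acclimated replicates 1, 2 and 3 and 88.5%, 90.2% and 81.6% in cold-acclimated replicates 1, 2 and 3. The share of Cbx5 was 15.9%, 12.2% and 23.9% without and 0.943%, 0.699% and 5.99% with cold acclimation, and that of Cbx1 was 20.2%, 21.1% and 18.1% without and 10.6%, 9.14% and 12.4% with it. Thus HP1γ transcripts prevailed in both conditions and by more in the cold, and neither the share of Cbx3 nor that of Cbx5 overlapped between conditions. The sum itself was 445, 577 and 596 TPM without and 214, 241 and 452 TPM with cold acclimation, where only cold-acclimated replicate 3 exceeded the lowest non-acclimated library. The ratio of Cbx5 to Cbx1 was 0.785, 0.580 and 1.32 at 37°C and 0.0891, 0.0765 and 0.484 at 26°C, lower in the cold in every replicate. Ratios and shares do not depend on how libraries are scaled to one another.

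**Figure D2:**
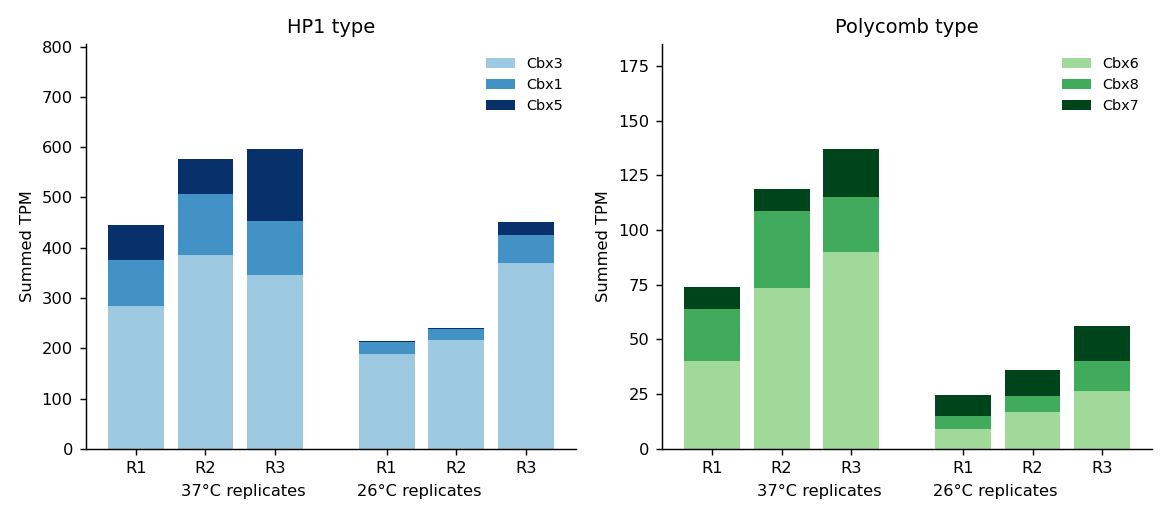
Summed TPM of the HP1-type genes (left) and of the Polycomb-type genes (right; Cbx2 is too low to be drawn) in each library, with replicates R1 to R3 at 37°C and at 26°C and stacked segments for the genes. Cbx3 fills 58.0% to 66.7% of the HP1 bars at 37°C and 81.6% to 90.2% at 26°C, and the Polycomb bars run from 73.9 to 137 TPM at 37°C and from 24.8 to 55.9 TPM at 26°C.

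Of the Polycomb-type genes, Cbx6 and Cbx8 were lower in the cold in every replicate, Cbx7 overlapped between the conditions and Cbx2 was barely detected. Cbx6 (chr15:79708099-79718534, minus strand) had 40.2, 73.7 and 89.7 TPM without and 8.93, 16.7 and 26.5 TPM with cold acclimation. The conditions did not overlap, and the decrease was close to the same in the 3 replicates, with differences of -2.05, -2.08 and -1.72 in log2(TPM + 1). Mean TPM was 67.9 ± 25.3 and 17.4 ± 8.81 (SD, n = 3), and the log2 difference was -1.95 (SE 0.45).

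Cbx8 (chr11:118929262-118931739, minus strand) had 23.9, 34.9 and 25.1 TPM without and 5.97, 7.50 and 13.6 TPM with cold acclimation. Its conditions did not overlap either, and as for Cbx1 the decrease was smallest in replicate 3 (differences of -1.83, -2.08 and -0.84 in log2(TPM + 1)). Mean TPM was 28.0 ± 6.06 and 9.02 ± 4.02 (SD, n = 3), with a log2 difference of -1.59 (SE 0.34). The Cbx8 values rest on 72 to 421 reads per library, the fewest of any member but Cbx2.

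Cbx7 (chr15:79800005-79855344, minus strand) had 9.83, 10.3 and 22.2 TPM without and 9.87, 11.7 and 15.8 TPM with cold acclimation. The conditions overlapped, and replicate 3 had the highest level in each of them. The log2 difference was -0.10 (SE 0.36), and its direction was not stable, at 0.09 without both libraries of replicate 3 and 0.29 after median of ratios scaling between libraries. Cbx2 (chr11:118913845-118922101, plus strand) had 0.024, 0.119 and 0.149 TPM without and 0.038, 0.072 and 0.032 TPM with cold acclimation. These values rest on 1 to 11 reads per library, which is too few to compare the conditions, and Cbx2 did not reach the mean of 1 TPM set for testing.

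Within the 4 Polycomb-type members the share of Cbx7 was 13.3%, 8.62% and 16.2% without and 39.8%, 32.5% and 28.2% with cold acclimation, and that of Cbx6 was 54.4%, 61.9% and 65.4% without and 36.0%, 46.5% and 47.4% with it. Both shares differed between the conditions without overlap, in opposite directions.

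Set against each other, the types did not separate by their response, since each held genes that were lower in the cold and a gene that overlapped between conditions. The summed TPM of the Polycomb-type members was 73.9, 119 and 137 without and 24.8, 35.9 and 55.9 with cold acclimation. The sums of the Polycomb-type members did not overlap between the conditions, whereas those of the HP1-type genes did.

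By level, the order of the means at 37°C was Cbx3 (338 TPM), Cbx1 (107 TPM), Cbx5 (94.6 TPM), Cbx6 (67.9 TPM), Cbx8 (28.0 TPM), Cbx7 (14.1 TPM) and Cbx2. Cbx1 and Cbx5 overlapped in their libraries, as did Cbx5 and Cbx6, so these neighbours were not separated beyond their spread, while Cbx3 lay above all others in every library. At 26°C the order was Cbx3 (258 TPM), Cbx1 (33.5 TPM), Cbx6 (17.4 TPM), Cbx7 (12.4 TPM), Cbx5 (10.3 TPM), Cbx8 (9.02 TPM) and Cbx2. Over the libraries all neighbours from Cbx1 down to Cbx8 overlapped, though within each cold-acclimated library Cbx1 lay above Cbx6. In cold-acclimated replicates 1 and 2, Cbx5 was below every member but Cbx2, whereas in cold-acclimated replicate 3 it lay above Cbx6, Cbx7 and Cbx8.

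Genes were called where limma, fitted to log2(TPM + 1) over all 12227 tested genes, gave an adjusted p (Benjamini-Hochberg) below 0.05 with a log2 difference of at least 1 in size. Of the 6 tested members, 4 were called downregulated (Cbx1, Cbx5, Cbx6 and Cbx8). Over all tested genes 16.0% were called downregulated and 2.63% upregulated, and nothing is read from the members' count because the contrast chose them. The same 4 members were called after median of ratios scaling, where 8.6% of all genes were called downregulated, and without replicate 3, where 25.3% were. They were also the members whose conditions did not overlap, with all cold-acclimated libraries lower, which held for 31.4% of all tested genes. The median log2 difference of the 6 members was -1.68 beside -0.34 for all genes, and median of ratios scaling, which moved the median of all genes to 0.03, gave -1.28 for the members. Among all tested genes ordered from the lowest log2 difference, Cbx5 lay within the first 0.0245%, Cbx6 within 4.56%, Cbx1 within 6.30%, Cbx8 within 8.92%, Cbx3 within 45.0% and Cbx7 within 61.6%.

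In the limma fit, which did not pair the replicates, the calls of the members were fragile to the loss of 1 library. Leaving out cold-acclimated replicate 1, cold-acclimated replicate 2 or non-acclimated replicate 2 ended all 4 calls. Without non-acclimated replicate 1, only Cbx6 was called, without non-acclimated replicate 3 only Cbx1 and Cbx8, and without cold-acclimated replicate 3 all 4. The differences themselves stayed negative in each of these fits, between -4.99 and -3.29 for Cbx5, -2.20 and -1.54 for Cbx1, -2.30 and -1.57 for Cbx6, and -1.89 and -1.36 for Cbx8. Without the filter on low values, where all 21195 genes above 0 were tested, only Cbx8 was called.

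**Figure D3:**
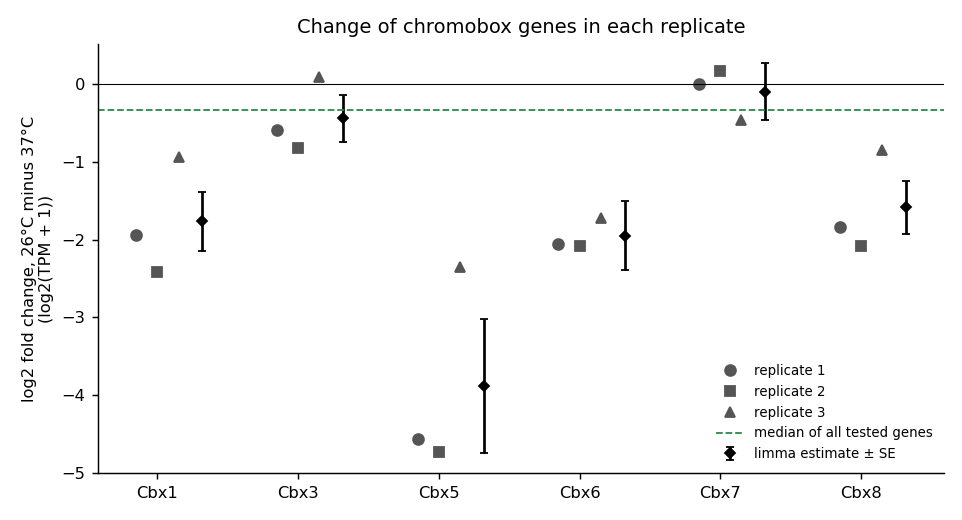
Difference of log2(TPM + 1) between 26°C and 37°C for the 6 tested members, in each replicate (grey symbols) and as the limma estimate with its standard error (black diamonds); the dashed line is the median of all tested genes (-0.34). Cbx5 lies lowest (-3.89), and replicate 3 has the smallest decrease in Cbx1, Cbx5, Cbx6 and Cbx8.

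Several members share their locus with another gene. The start of Cbx5 lies 503 bases from that of Hnrnpa1, an RNA-binding protein gene on the opposite strand. Hnrnpa1 had 582, 1212 and 1473 TPM without and 387, 611 and 1549 TPM with cold acclimation, which overlapped, with a log2 difference of -0.50 (SE 0.56, limma adjusted p = 0.56). Within replicates 1, 2 and 3, the differences in log2(TPM + 1) were -0.59, -0.99 and 0.07 for Hnrnpa1 and -4.57, -4.74 and -2.36 for Cbx5. The difference between the partners was not tested. Cbx3 starts 458 bases from Hnrnpa2b1, a close relative of Hnrnpa1, and the annotated genes overlap by 459 bases. Hnrnpa2b1 had 564, 1052 and 1068 TPM without and 450, 543 and 1032 TPM with cold acclimation, a log2 difference of -0.44 (SE 0.40, limma adjusted p = 0.46) beside -0.44 for Cbx3.

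**Figure D4:**
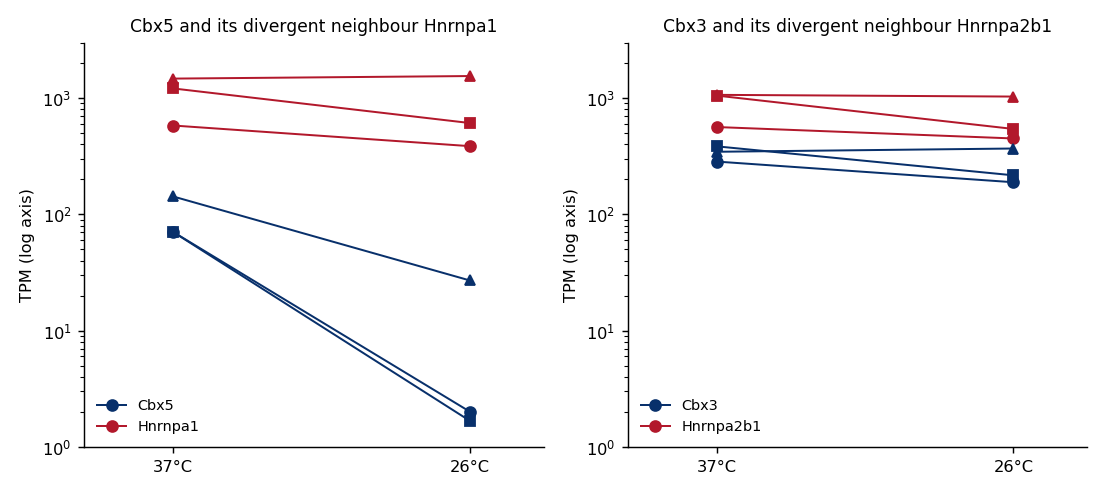
TPM at 37°C and 26°C of Cbx5 with Hnrnpa1 (left) and of Cbx3 with Hnrnpa2b1 (right), on logarithmic axes; each line joins the libraries of 1 replicate number, and symbols stand for replicates. Cbx5 drops to 2.02, 1.68 and 27.1 TPM while Hnrnpa1, whose start lies 503 bases away, overlaps between the conditions, as do Cbx3 and Hnrnpa2b1.

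Antisense genes lie over Cbx1, Cbx7 and Cbx2, and Hnrnpa2b1 likewise overlaps Cbx3 on the opposite strand. The libraries kept strand, but the strand setting used in counting is not stated, so reads of such partners may not be separated. Over Cbx1 lies Gm11517, which had 1.07, 0.178 and 0.122 TPM without and 11.7, 7.48 and 2.44 TPM with cold acclimation, from 5, 1 and 1 reads and from 69, 46 and 17 reads. It was upregulated while Cbx1 was lower, by 2.36 on the log2 scale (SE 0.52, limma adjusted p = 0.022), and lost the call without non-acclimated replicate 1 or 2 or cold-acclimated replicate 1 or 2 (limma adjusted p = 0.054 to 0.082). Over Cbx7 lies Apobec3, a cytidine deaminase gene that restricts retroviruses, with 20.2, 22.5 and 26.2 TPM without and 9.39, 8.74 and 12.5 TPM with cold acclimation. Apobec3 was downregulated by a log2 difference of -1.10 (SE 0.25, limma adjusted p = 0.023), a call kept only without cold-acclimated replicate 3 among the fits lacking 1 library (limma adjusted p = 0.053 to 0.091 in the others), and after median of ratios scaling the difference was -0.72, short of the fold threshold. Gm35829 beside Cbx2, and Npcd, which spans Cbx6 on the same strand, were listed at 0 in all 6 libraries.

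Among genes for H3K9 methylation and HP1 partners, 23 of the 27 tested had negative log2 differences, as had at least 61.6% of all tested genes. The list also holds genes for H3K9 demethylases and H4K20 methyltransferases, so its counts mix genes that lay down and remove the H3K9 mark. Of the 27, 10 were downregulated (37.0%, beside 16.0% of all genes) and 0 upregulated by limma. At an unadjusted p under 0.05, 12 were lower and 0 higher. The share of all genes at that p was not counted, so nothing is read from such counts, here and for the lists below. By voom 9 were downregulated and 0 upregulated, beside 13.9% and 3.34% of all genes. The median log2 difference of the list was -0.83 beside -0.34 for all genes. After median of ratios scaling 5 of its genes (Tasor, Mphosph8, Ehmt1, Atf7ip and Chaf1a) were called downregulated, beside 8.6% of all genes. Tasor, the scaffold of the human silencing hub (HUSH) complex, had 13.3, 7.91 and 7.58 TPM without and 0.919, 0.874 and 0.867 TPM with cold acclimation. It was downregulated with a log2 difference of -2.45 (SE 0.30, limma adjusted p = 0.007) and kept the call whichever library was left out (limma adjusted p = 0.0042 to 0.044).

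Mphosph8, the HUSH subunit whose own chromodomain reads methylated H3K9, had 23.1, 24.2 and 23.2 TPM without and 7.95, 7.86 and 8.79 TPM with cold acclimation. Its replicates lay close together in both conditions, replicate 3 included, and it was downregulated with a log2 difference of -1.41 (SE 0.22, limma adjusted p = 0.009). Ehmt1, an H3K9 methyltransferase also called GLP, had 42.8, 56.3 and 36.5 TPM without and 17.0, 14.9 and 14.9 TPM with cold acclimation, with a log2 difference of -1.46 (SE 0.25, limma adjusted p = 0.011). Mphosph8 and Ehmt1 each lost the call only without non-acclimated replicate 2 (limma adjusted p = 0.053 and 0.058). Atf7ip, the partner that stabilizes the methyltransferase Setdb1, was downregulated with a log2 difference of -1.69 (SE 0.33, limma adjusted p = 0.016), and lost the call without non-acclimated replicate 1 or 2 or cold-acclimated replicate 1 or 2 (limma adjusted p up to 0.069). The other downregulated genes of the list, named after their values were seen, were Setdb1 itself, the H4K20 methyltransferase gene Kmt5c, the chromatin assembly factor gene Chaf1a, Adnp, the remodeller gene Hells and Uhrf1.

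Of 17 tested PRC1 genes other than the Cbx genes, 1 was downregulated (5.88%, beside 16.0% of all genes) and 0 upregulated by limma, with 3 lower and 1 higher at an unadjusted p under 0.05, and the median log2 difference was -0.22. Without replicate 3, 3 were downregulated, beside 25.3% of all genes. By voom 1 was downregulated and 0 upregulated, beside 13.9% and 3.34% of all genes. The downregulated gene was Bcorl1, a corepressor of a variant PRC1 (log2 difference -1.36, SE 0.32, limma adjusted p = 0.026), and the call was lost without any one of the libraries other than cold-acclimated replicate 3 (limma adjusted p = 0.051 to 0.097). After median of ratios scaling Bcorl1 was not called and Yaf2, named after its value was seen, was called upregulated, as were 6.87% of all genes.

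Of 13 tested genes for PRC2 and H3K27, a list that also holds H3K27 demethylase genes, 3 were downregulated (23.1%, beside 16.0% of all genes) and 0 upregulated by limma. At an unadjusted p under 0.05, 4 were lower and 0 higher, and the median log2 difference was 0.00. By voom 3 were downregulated and 0 upregulated, beside 13.9% and 3.34% of all genes. With the replicate as a block 4 were downregulated, beside 21.9% of all genes. The downregulated genes included both catalytic subunits of PRC2. Ezh2 had 199, 216 and 173 TPM without and 21.2, 9.63 and 74.6 TPM with cold acclimation, so that, as for Cbx5, cold-acclimated replicate 3 kept the highest level of its condition. Its log2 difference was -2.91 (SE 0.63, limma adjusted p = 0.021). Ezh1 had 32.9, 19.8 and 18.6 TPM without and 2.42, 3.63 and 7.15 TPM with cold acclimation, with a log2 difference of -2.25 (SE 0.39, limma adjusted p = 0.012). The accessory subunit gene Mtf2 was at the threshold (log2 difference -1.09, SE 0.32, limma adjusted p = 0.05). Ezh2 lost its call without non-acclimated replicate 1 or 2 or cold-acclimated replicate 1 or 2 (limma adjusted p = 0.055 to 0.08), Ezh1 without non-acclimated replicate 1 or 2 or cold-acclimated replicate 1 (limma adjusted p = 0.051 to 0.053), and Mtf2 without any library but cold-acclimated replicate 3 and also after median of ratios scaling.

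Of 14 tested genes for other chromodomain proteins, 2 were downregulated (14.3%, beside 16.0% of all genes) and 0 upregulated by limma, with 2 lower and 3 higher at an unadjusted p under 0.05 and a median log2 difference of -0.14. The downregulated genes were Mphosph8, described with the HP1 partners, and Msl3 of the male-specific lethal acetyltransferase complex (log2 difference -1.29, SE 0.29, limma adjusted p = 0.023, lost without any library but cold-acclimated replicate 3). After median of ratios scaling Msl3 was not called. The 2 remodeller genes Chd1 and Chd2, named after their values were seen, were then called upregulated, as were 6.87% of all genes. By voom 1 gene was upregulated, beside 3.34% of all genes.

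**Figure D5:**
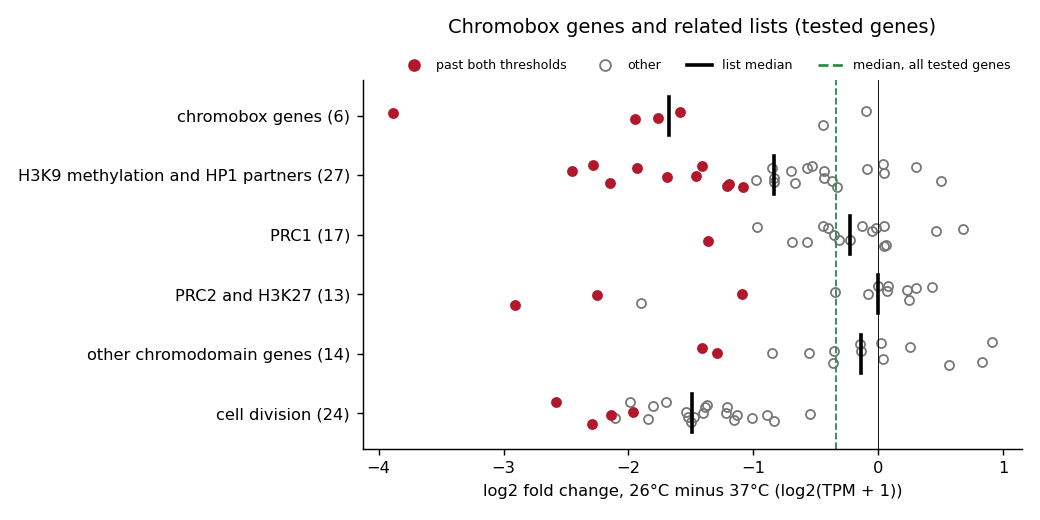
Difference of log2(TPM + 1) between cold-acclimated and non-acclimated cells for the tested chromobox genes and the genes of 5 related lists; filled points are past both thresholds, black bars are list medians and the dashed line is the median of all tested genes (-0.34). The list of H3K9 methylation and HP1 partners (median -0.83) and the cell division list (median -1.49) lie mostly to the left of that line, and the PRC1, PRC2 and other chromodomain lists lie around it.

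All 24 tested cell division genes had negative log2 differences, as had at least 61.6% of all tested genes. The list median was -1.49 beside -0.34 for all genes, but 20 of the 24 did not pass the test. The 4 downregulated genes (Aurkb, Bub1, Top2a and Plk1) were 16.7% of the list, beside 16.0% of all tested genes, and 0 were upregulated by limma or voom. At an unadjusted p under 0.05, 14 were lower and 0 higher, and the share over all genes was not counted. With the replicate as a block 11 were downregulated, beside 21.9% of all genes, and without replicate 3 this held for 23, beside 25.3% of all genes. The summed level of the list was 4691 to 5443 TPM in non-acclimated and 873 to 4884 TPM in cold-acclimated libraries. Mki67, the proliferation marker, had 230, 235 and 163 TPM without and 62.1, 43.1 and 173 TPM with cold acclimation, so that replicate 3 kept its level (log2 difference -1.40, SE 0.49, limma adjusted p = 0.077, and 0.0041 without replicate 3). The part of cell division in the levels of Cbx5, Cbx1, Cbx6 and Cbx8 was not tested. Top2a, the DNA topoisomerase of chromosome condensation, had a log2 difference of -2.58 (SE 0.69, limma adjusted p = 0.038), and Bub1, a spindle checkpoint kinase gene, -2.30 (SE 0.57, limma adjusted p = 0.03). The mitotic kinase genes Aurkb and Plk1 had log2 differences of -2.14 (SE 0.51, limma adjusted p = 0.027) and -1.96 (SE 0.57, limma adjusted p = 0.048). Each of the 4 lost its call without non-acclimated replicate 1 or 2 or cold-acclimated replicate 1 or 2, and Aurkb, Top2a and Plk1 also without non-acclimated replicate 3 (limma adjusted p up to 0.15). After median of ratios scaling Aurkb and Bub1 were called and Top2a and Plk1 were not, beside 8.6% of all genes called downregulated.

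The pattern of Cbx5 over the 6 libraries was shared by genes of many kinds. Among 9742 genes with a mean of at least 5 TPM, the highest Pearson correlations of log2(TPM + 1) with Cbx5 were those of Dcaf1 (r = 0.9993), B130055M24Rik (0.9987), Arsa (0.9987), Opa1 (0.9975), Slfnlnc (0.9972) and Pak2 (0.9971). Dcaf1 encodes a substrate receptor of a ubiquitin ligase, Arsa a lysosomal sulfatase, Opa1 a fusion protein of the inner mitochondrial membrane and Pak2 a kinase downstream of Rac and Cdc42. All of them had their lowest levels in cold-acclimated replicates 1 and 2, a middle level in cold-acclimated replicate 3 and their highest level in non-acclimated replicate 3. Pak2, for example, had 113, 105 and 149 TPM without and 26.6, 21.5 and 65.7 TPM with cold acclimation. The correlation takes no account of the size of a change. The log2 differences of the 6 genes ran from -0.66 (Dcaf1) to -1.82 (Pak2), beside -3.89 for Cbx5. In all, 77 genes reached r of at least 0.99. The correlations describe 6 libraries that share 2 temperatures and 3 replicate numbers, and no p is given for them.

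Among the family itself, Cbx1 followed Cbx5 most closely over the 6 libraries (r = 0.981), before Cbx8 (0.943) and Cbx6 (0.930). Mki67 came close to these (0.922), Cbx3 was lower (0.854), and Cbx7 (0.438) and the barely detected Cbx2 (0.445) followed it least. The values reflect temperature and the standing of replicate 3 together, and no order among the closest of them is read from 6 libraries.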

How the data were processed

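Poly(A)+ RNA from 3 cold-acclimated (24 h, 26°C) and 3 non-acclimated (24 h, 37°C) replicates of D10 T cells was sequenced on strand-specific libraries. Per the labels and the submitters' processing notes, tools named are FastQC 0.11.7, Trimmomatic 0.38, HISAT2 2.1.0 and featureCounts 1.6.3, with genome GRCm39. The values used are TPM as deposited by the authors, already divided by gene length and scaled per library. Gene lengths, strand setting and annotation release are not given in the sources consulted. The file holds no columns of comparisons, and 0 columns were left unused.

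Reads were recovered as whole multiples of a step that the 6 values of a gene share, and were whole within 0.001 reads for 100% of the 21195 genes above 0. They are the smallest numbers that give these values. For Cbx3 the gene length read in this way, 1031 bases, is shorter than its annotated full transcripts, so its reads may be a whole multiple of those recovered. Counting error was judged from these reads and covers no other error.

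Differences were fitted with limma 3.58.1 (R 4.3.3, trend) on log2(TPM + 1), a scale that understates changes of low genes, over 12227 genes (mean TPM of at least 1), with Benjamini-Hochberg adjustment over all of them. Figures were drawn with matplotlib 3.10.9 in Python 3.11.15, which with pandas 2.3.3, numpy 2.4.6 and scipy 1.17.1 gave the other values. Data were simulated without a replicate effect, with changes of 2 in log2 size planted in genes of at least 5 TPM on average. On them limma called 200 of 200 changed genes and 8 others among 12179. Replicate 3 stood apart in the real libraries, so these counts do not show how limma performed on them. In the simulated data reads were recovered for 98.8% of 20258 genes.

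The members and lists were chosen with earlier results of these data known, and no p is given for the members. The genes named are the members, at most 4 called genes per list and direction by smallest p, the 6 genes most like Cbx5 in expression, genes that start within 2000 bases of a member on the opposite strand, Mki67, Cd4, Cd3e and Gata3. Some items that the rule or the marker lists take in are not reported here. Genes overlapping a member were added after the annotation was read. Deviations from the condition means correlated at 0.48 to 0.51 between libraries with the same replicate number and at -0.41 to 0.02 otherwise. The numbers thus pair the libraries. The printed SE, adjusted p and fits lacking 1 library come from limma without this pairing, so they carry the spread between replicates. With the replicate as a block, limma adjusted p was 0.14 for Hnrnpa1 (0.56 without) and 0.16 for Hnrnpa2b1 (0.46 without). Alternatives were a pseudocount of 0.1, no filter, median of ratios scaling, quantile normalization, voom on recovered reads, a replicate block and leaving out each library. Leaving out both libraries of replicate 3 was added after the data were seen. Promoter sequences are from RefSeq.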

Additional observations from a re-analysis of the deposited data

How the results depend on the processing

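The differences of Cbx1, Cbx5, Cbx6 and Cbx8 kept their direction under all 13 alternatives. With each library left out in turn, called members ranged from 0 to 4 downregulated and all called genes from 59 to 459 upregulated and 345 to 2725 downregulated. In the same fits the downregulated genes ranged from 1 to 15 for H3K9 methylation and HP1 partners, 0 to 1 for PRC1, 0 to 4 for PRC2 and H3K27, 0 to 3 for other chromodomain genes and 0 to 23 for cell division. Without the filter on low values, 184 genes were called upregulated and 1121 downregulated (321 and 1954 with it), with 1 member, 6 H3K9, 0 PRC1, 1 PRC2 and 0 cell division genes downregulated. Median of ratios scaling gave 840 upregulated and 1052 downregulated genes, 5 H3K9, 0 PRC1, 1 other chromodomain and 2 cell division genes downregulated, 1 PRC1 and 2 other chromodomain genes upregulated, and a log2 difference of -0.026 for Cbx3. Quantile normalization gave 731 and 765 genes, 4 H3K9, 0 PRC1 and 0 other chromodomain genes downregulated, 2 other chromodomain genes upregulated, and log2 differences of 0.49 for Cbx7 and -1.07 for Cbx8, which then lost its call. With voom 1 other chromodomain gene was upregulated. With the replicate block, 458 genes were called upregulated and 2679 downregulated, and 11 cell division genes, 4 PRC2 genes and 4 members were downregulated. It changed no call of a member. Without both libraries of replicate 3, 653 and 3088 genes were called, with 3 PRC1 and 23 cell division genes downregulated and 1 other chromodomain gene upregulated. Ranked by Spearman's correlation, 157 genes tied with Cbx5 at 1, among them 1 of the 6 named. The causes of these shifts were not tested. With 1 to 11 reads per library, Cbx2 was too low for any comparison.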
